A study of Mus musculus with 6 samples.

Results

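Interferon-responding neutrophils were the neutrophils of these libraries in which transcripts of 4 interferon-stimulated genes, Rsad2, Ifit1, Ifit2 and Ifit3, added up to 5 or more unique molecular identifiers (UMIs, one for each captured transcript). They numbered 1304 of the 17212 neutrophils kept in the sorted libraries, which held 19221 of the 37490 cell barcodes of the series. Of these cells, 1055 came from brain tumors and 249 from blood. A kept cell had at least 200 detected genes, at most 10% mitochondrial UMIs, at least 0.5% of its UMIs from the neutrophil genes S100a8 and S100a9, and under 0.3% from the macrophage genes C1qa, C1qb and C1qc. The members were chosen by the measured values of the 4 gate genes, so those values are given as a description with no test, and the gate genes were left out of every comparison that follows.

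All libraries came from mice that carried a tumor grown for 18 days from 10000 injected SB28 cells, a mouse glioma line. Neutrophils sorted as CD45+ CD11b+ cells with high LY6G and low or no LY6C were taken from the tumor (2 libraries) and from blood (2 libraries), and all CD45+ cells were taken from the tumor (2 libraries). No tumor-free mice were analysed here, and the labels give neither strain nor age nor the number of animals behind each library. P-values therefore rest on these libraries alone, whose spread may be technical. For members against other cells of the same library, they measure how far that difference varied between libraries. The spread was estimated with information shared across genes, from 2 residual degrees of freedom in the fit of the sorted libraries. Blood was drawn by puncture whereas the tumor was dissociated after perfusion, so tissue and handling cannot be told apart.

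Type I interferons bind a receptor made of IFNAR1 and IFNAR2, whose kinases JAK1 and TYK2 activate transcription factors, STAT2 among them. With IRF9 these form a complex that binds a DNA motif, the interferon-stimulated response element (ISRE), in front of antiviral genes. Interferon gamma acts through another receptor and another motif, the gamma-activated site (GAS). Neutrophils are short-lived phagocytes that leave the bone marrow with ready-made granules, and a fraction with high interferon-stimulated transcripts is a recurrent feature of single-cell maps of mouse neutrophils.

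Promoters are shown for 4 genes that hold the ISRE core. Rsad2 is a gate gene, Isg15 and Gbp2 were higher in members of both tissues, and Cxcl10 was called higher in tumor members only. The promoter of Slfn4, a schlafen gene named as a marker of interferon-responding neutrophils, is also shown. Whether the element drives the genes of the lists below was not tested. Each runs 5′ to 3′ on the strand of its gene, from 250 bases before to 50 bases after the annotated start, on the RefSeq GRCm38.p6 build. Capitals mark matches to the ISRE core, spelled GAAA, any 2 bases, GAAA, or to its reverse complement, TTTC, any 2 bases, TTTC. The promoters were chosen after their matches were known.
Rsad2, viperin, a gate gene, chr12:26456403-26456702, minus strand: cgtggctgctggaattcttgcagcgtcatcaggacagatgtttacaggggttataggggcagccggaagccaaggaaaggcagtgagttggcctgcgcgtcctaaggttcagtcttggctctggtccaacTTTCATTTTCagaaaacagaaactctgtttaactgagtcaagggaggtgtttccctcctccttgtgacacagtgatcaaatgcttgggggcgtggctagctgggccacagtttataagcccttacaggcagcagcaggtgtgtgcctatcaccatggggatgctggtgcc
Isg15, a ubiquitin-like protein joined to other proteins, chr4:156200769-156201068, minus strand: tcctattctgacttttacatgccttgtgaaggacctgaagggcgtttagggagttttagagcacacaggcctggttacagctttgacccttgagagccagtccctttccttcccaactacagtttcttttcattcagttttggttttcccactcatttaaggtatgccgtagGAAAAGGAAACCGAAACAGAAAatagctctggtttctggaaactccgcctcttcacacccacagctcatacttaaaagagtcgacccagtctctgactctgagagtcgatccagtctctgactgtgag
Gbp2, a guanylate-binding GTPase, chr3:142620413-142620712, plus strand: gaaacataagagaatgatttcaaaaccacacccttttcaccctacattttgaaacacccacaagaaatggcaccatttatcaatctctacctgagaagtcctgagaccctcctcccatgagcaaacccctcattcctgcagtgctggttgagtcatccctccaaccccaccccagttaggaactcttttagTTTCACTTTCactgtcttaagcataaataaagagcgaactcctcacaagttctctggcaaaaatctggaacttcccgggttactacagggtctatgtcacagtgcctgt
Cxcl10, a T-cell attracting chemokine, chr5:92348840-92349139, minus strand: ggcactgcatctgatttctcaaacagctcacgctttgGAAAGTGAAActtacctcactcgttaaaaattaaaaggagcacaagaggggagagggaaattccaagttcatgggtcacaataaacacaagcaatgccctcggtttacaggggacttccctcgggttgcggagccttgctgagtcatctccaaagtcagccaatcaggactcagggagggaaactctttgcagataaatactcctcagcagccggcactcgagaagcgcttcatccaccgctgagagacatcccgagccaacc
Slfn4, a schlafen protein of myeloid cells, chr11:83174936-83175235, plus strand: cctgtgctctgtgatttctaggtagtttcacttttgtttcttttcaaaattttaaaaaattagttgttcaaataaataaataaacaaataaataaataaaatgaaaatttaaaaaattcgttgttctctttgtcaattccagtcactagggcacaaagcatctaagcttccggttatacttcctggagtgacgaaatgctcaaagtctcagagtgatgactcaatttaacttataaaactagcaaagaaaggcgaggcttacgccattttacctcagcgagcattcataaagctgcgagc

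The core began 120 bases before the start in Rsad2, 59 in Gbp2 and 213 in Cxcl10, and Isg15 held 3 overlapping copies at 78, 72 and 66 bases before its start. Slfn4 held no exact match to the core in this window, which says only that these letters are not in it. Over all 27025 promoters of this length, 3.99% held the core on either strand.

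The share of neutrophils past the gate was higher in both tumor libraries than in both blood libraries. In the tumor libraries 372 of 3317 and 683 of 5674 kept cells passed, or 11.2% (95% Clopper-Pearson interval 10.2 to 12.3) and 12.04% (11.2 to 12.9). In the blood libraries 59 of 3029 and 190 of 5192 passed, or 1.95% (1.49 to 2.51) and 3.66% (3.17 to 4.21). The mean was 11.6 ± 0.58% in tumor and 2.80 ± 1.21% in blood (SD, n = 2 each), a difference of 8.82 percentage points and a ratio of 4.15. The exact two-sided permutation p was 0.333, the smallest that 2 libraries against 2 can give. The intervals cover counting error only.

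The unsorted CD45+ tumor libraries gave shares of 7.29% (42 of 576 kept cells, interval 5.31 to 9.73) and 8.60% (67 of 779, interval 6.73 to 10.8), with shallower cells, at a median of 1702 and 2634 UMIs. Depth was similar across the sorted sets: the median was 3877.5 and 4215 UMIs in tumor members and 4479 in each blood library's members, against 3901 and 3853.5 in tumor and 4251.5 and 3927.5 in blood gate-negative cells. Every cell was also thinned to 2000 UMIs, with shallower cells left out, which kept 3081 and 5255 tumor cells and 2789 and 4342 blood cells. A gate of 2 UMIs then took a mean of 14.4% of tumor and 4.82% of blood cells, and a gate of 5 UMIs took 7.83% of tumor and 1.15% of blood cells. In the 189 and 573 CD45+ cells left after thinning, these gates took a mean of 12.4% and 6.58%.

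**Figure D1:**
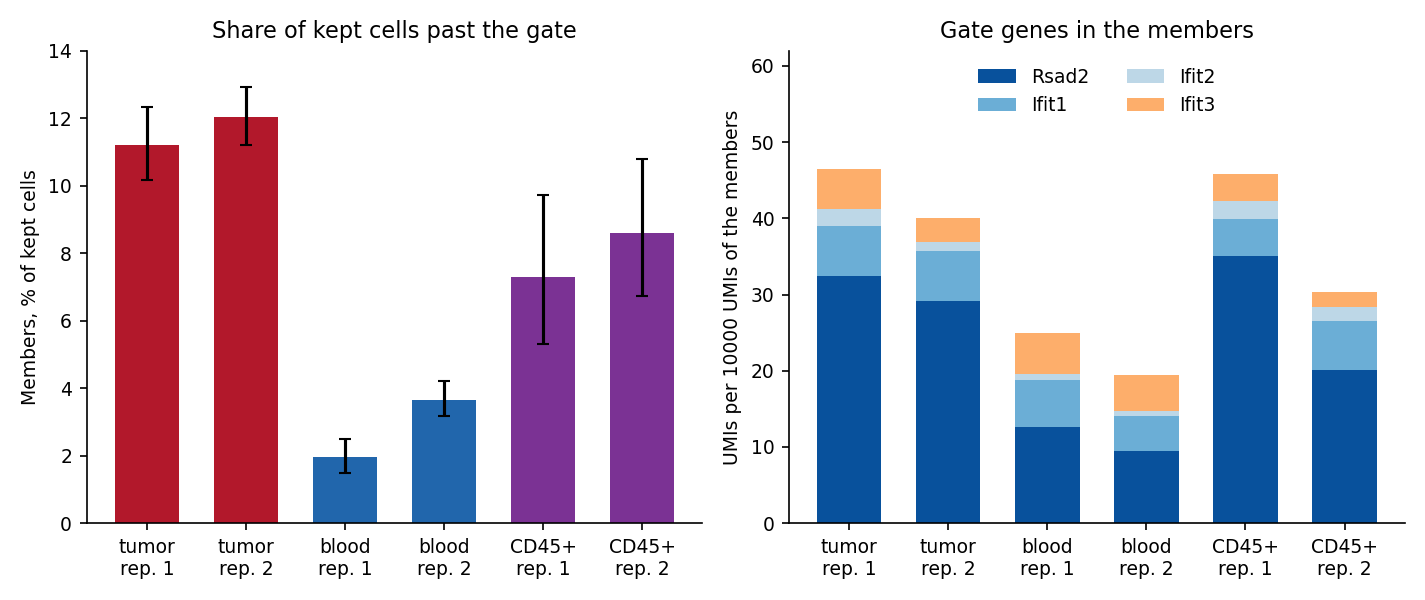
Left, share of kept neutrophils with 5 or more gate UMIs in each of the 6 libraries, in percent, with 95% Clopper-Pearson intervals as error bars. Right, gate UMIs per 10000 UMIs of the members, stacked by gate gene: both tumor libraries (11.2% and 12.04%) lie above both blood libraries (1.95% and 3.66%), and Rsad2 is the largest component in all 6.

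The gate transcripts that chose the members are described here without a test. The median gate sum was 13 UMIs in each tumor library and 7 in each blood library, with maxima of 155 and 177 in tumor and of 57 and 66 in blood. Rsad2, which encodes viperin, an enzyme that makes an antiviral nucleotide, was detected in 96.8% and 98.0% of tumor members and in 94.9% and 96.8% of blood members. It stood at 32.4 and 29.1 UMIs per 10000 in tumor members and at 12.6 and 9.45 in blood members. Ifit1, whose protein binds foreign RNA ends, stood at 6.55 and 6.62 in tumor members and at 6.22 and 4.56 in blood members. Rsad2 made up 69.8% and 72.6% of the gate UMIs of tumor members and 50.3% and 48.7% of those of blood members. Many members passed on 1 gate gene alone: 126 of 372 and 230 of 683 in tumor, and 15 of 59 and 37 of 190 in blood. All 4 gate genes were detected in 16.1% and 8.20% of tumor members and in 8.47% and 10% of blood members.

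The gate cuts a continuous range. Summed over 74 antiviral genes without the gate genes, cells with 5 gate UMIs had 118 and 122 UMIs per 10000 in tumor and 191 and 172 in blood, and cells with 4 gate UMIs had 112 and 108 in tumor and 171 and 160 in blood. Gate-negative cells had 57.2 and 55.7 in tumor and 93.8 and 96.2 in blood, and cells with 20 or more gate UMIs had 278 and 232 in tumor and 367 and 346 in blood. The members just inside the gate and the cells just outside it thus lay close together, and both lay between the extremes. A further 2627 kept cells had 1 to 4 gate UMIs and stayed out of the comparison.

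**Figure D2:**
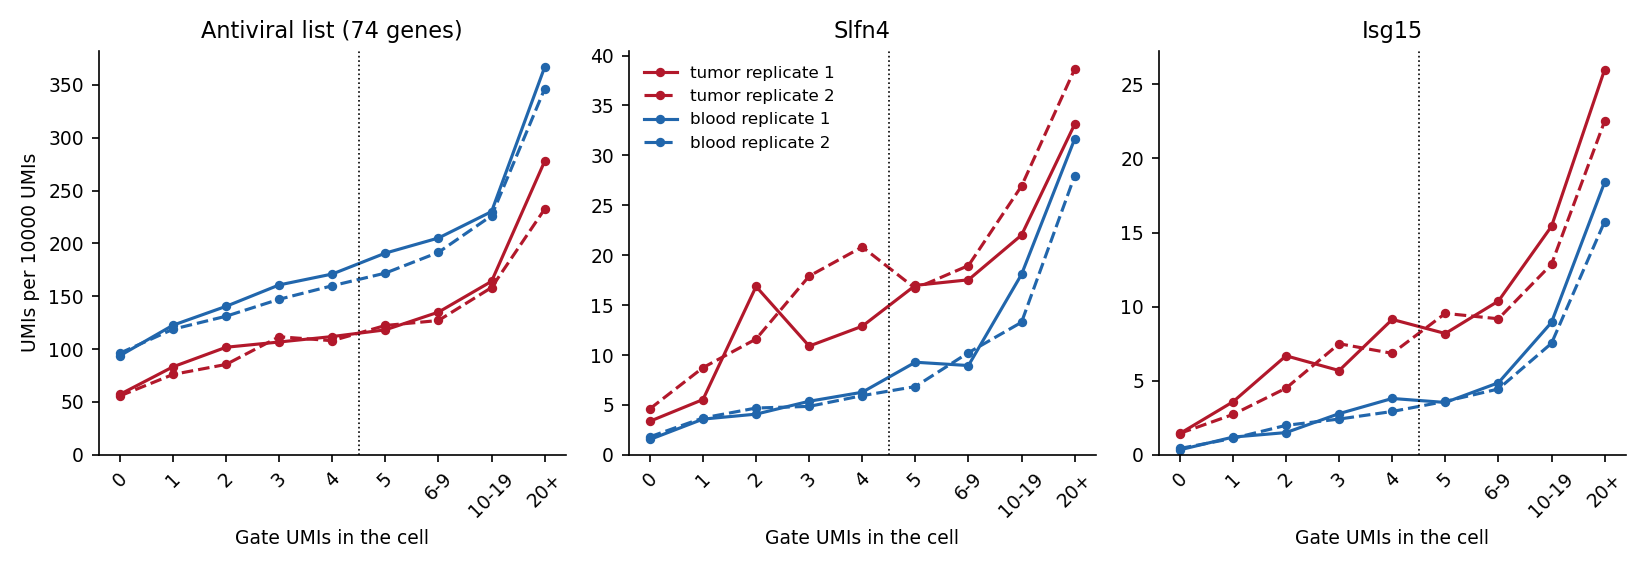
UMIs per 10000 of the summed antiviral list (74 genes, gate genes left out), Slfn4 and Isg15 against the number of gate UMIs in a cell, in the 4 sorted libraries, with a dotted line at the gate of 5. The antiviral sum lies between 55.7 and 96.2 at 0 gate UMIs and between 232 and 367 at 20 or more, with no step at the gate.

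Levels were first checked for other cell types, as UMIs per 1000000 (CPM) summed over marker lists. Total UMIs ran from 13945799 to 32628481 in the sorted libraries and were 82077047 and 129422458 in the CD45+ libraries. All 13 neutrophil markers were detected in every set, summing to 19281 and 24341 CPM in tumor members, 24391 and 27550 in tumor gate-negative cells, 28444 and 31643 in blood members and 34447 and 34813 in blood gate-negative cells. The 6 natural killer cell markers were at 0 in all tumor sets, and B-cell markers reached 153 CPM in the members of blood replicate 2 and were at 40.3 or less in the other sorted sets. The 7 monocyte markers summed to 1075 and 1411 CPM in tumor members and 2735 and 2357 in tumor gate-negative cells. In blood they summed to 509 and 1605 CPM in members and 992 and 2116 in gate-negative cells. In tumor 2 of the 7 passed as higher, the antiviral list gene Ms4a4c among them. Chil3, also a granule list gene, was the 1 that passed as lower (-1.10, log2). The 11 macrophage markers summed to 1432 and 914 CPM in tumor members and 1826 and 912 in tumor gate-negative cells, and 3 of the 9 tested rose in tumor, C1qb by 0.66, Cd68 by 0.60 and Fcgr1, also an antiviral list gene, by 2.06 (log2). The microglial marker Cx3cr1 rose by 0.91 in tumor. Pf4, from the platelet list, rose by 1.97 there, and 459 Pf4 UMIs lay in 11 members of tumor replicate 2. Gp9 and Gp1bb of the same list were not detected in any tumor set, and the cell type behind Pf4 was not tested. The part of such cells in the results was not tested beyond the removals described below. At most 162 barcodes were shared by a pair of libraries (tumor replicate 2 and CD45+ replicate 1), and 0 were past the gate in both.

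Members were compared with gate-negative cells of the same library, each member paired with a cell whose total UMIs were within 10%. This left 366 and 683 pairs in tumor and 59 and 190 in blood. UMIs were summed per library and set and tested with edgeR's quasi-likelihood test, with the library as a block and Benjamini-Hochberg adjustment over 7784 genes. Log2 fold changes are members over gate-negative cells, and levels are TMM-scaled CPM in replicates 1 and 2. The standard error (SE) given with a fold change was worked back from the test, as the absolute log2 fold change divided by the square root of edgeR's F statistic. Since cells were picked by 4 interferon-stimulated transcripts, genes that vary together with them among neutrophils are favoured by that choice.

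In tumor, 963 genes differed at an adjusted p under 0.05 (12.4% of those tested), 788 of them higher in members (10.1%) and 175 lower (2.25%). In blood, 161 differed (2.07%), 137 higher (1.76%) and 24 lower (0.308%). Of the genes called higher, 128 were called in both tissues, which is 93.4% of the blood calls and 16.2% of the tumor calls. Of those called lower, 3 were shared, out of 24 in blood and 175 in tumor. Of the genes called higher in tumor, 66.8% had a blood estimate above 0, against 49.8% of all tested genes. Of those called lower in tumor, 62.9% lay below 0 in blood, against 50.2% of all. The paired members held 1733156 and 3437474 UMIs in tumor and 273098 and 941145 in blood, so fewer counts stood behind the blood calls. The part this had in the small overlap was not tested. DESeq2, which gave an adjusted p for 5671 of the 7784 genes in tumor, called 305 higher and 15 lower there, and 82 and 6 in blood. With library totals in place of TMM scaling the median of all genes in tumor shifted to -0.21 from -0.03 on the log2 scale and the tumor split became 484 higher and 484 lower. Leaving out tumor replicate 1 gave 374 higher and 35 lower in tumor, leaving out tumor replicate 2 gave 521 and 81, and leaving out blood replicate 2 gave 273 lower in tumor and 15 lower in blood.

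The antiviral list was higher in members of both tissues. Of its 70 tested genes, 65 rose in tumor and 48 rose in blood, all 48 also in tumor, and none fell. These counts include Ifit3b and Ifit1bl1, which rose in both tissues and whose values are uncertain because they resemble gate genes. The median log2 fold change was 2.60 in tumor, where the median of all genes was -0.03, and 2.02 in blood, where it was 0.00. The 5 genes called in neither tissue were Ifitm1, Ifitm2, Ifitm6, Ms4a6d and Lgals3bp.

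Isg15 (chr4:156199424-156200818, mm10) had 2129 and 1924 CPM in tumor members, against 143 and 165 CPM in tumor gate-negative cells, and 679 and 510 CPM in blood members, against 48.5 and 38.7 CPM in blood gate-negative cells. Each tissue's members lay above its gate-negative cells with no overlap, by 3.71 ± 0.13 in tumor and 3.75 ± 0.19 in blood on the log2 scale (edgeR adjusted p = 1.59e-18 and 2.91e-14). Cmpk2, a mitochondrial nucleotide kinase next to Rsad2 in the genome, had 176 and 135 CPM in tumor members and 0.585 and 2.30 CPM in tumor gate-negative cells, the largest rise of the list in tumor after Ifit3b. In blood Cmpk2 had 239 and 177 CPM in members and 9.70 and 10.4 CPM in gate-negative cells, with fold changes of 6.42 ± 0.31 in tumor and 4.22 ± 0.32 in blood (log2). Ifit3b is a near-identical copy of the gate gene Ifit3, so its values are uncertain, and those of Ifit1bl1 are too.

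Oasl2, an oligoadenylate synthetase-like protein, had 742 and 744 CPM in tumor members and 106 and 107 CPM in tumor gate-negative cells. In blood it had 993 and 870 CPM in members and 197 and 217 CPM in gate-negative cells, with log2 fold changes of 2.80 in tumor and 2.12 in blood. Members of tumor lay below those of blood, and gate-negative cells of tumor did too. Ifitm3, which blocks viral entry at membranes, had 2008 and 2033 CPM in tumor members and 369 and 536 CPM in tumor gate-negative cells, and 2338 and 1605 CPM in blood members and 530 and 718 CPM in blood gate-negative cells. Oasl2, Ifitm3, Epsti1 and Ddx60 were singled out here after their values were seen.

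All 7 schlafen genes rose in tumor members and 6 of them in blood members, with medians of 3.25 and 3.01 (log2). Schlafens regulate the growth of immune cells and limit viral replication, several by acting on transfer RNA. Slfn4 (chr11:83175186-83190216, mm10) had 2999 and 3576 CPM in tumor members, against 325 and 440 CPM in tumor gate-negative cells. It had 1310 and 1013 CPM in blood members, against 120 and 147 CPM in blood gate-negative cells. Both tissues gave a rise of nearly the same size, 3.11 ± 0.13 and 3.01 ± 0.16 (edgeR adjusted p = 1.45e-17 and 2.91e-14), on different levels.

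Slfn5 had 617 and 714 CPM in tumor members and 37.4 and 43.7 CPM in tumor gate-negative cells, and 645 and 557 CPM in blood members and 9.70 and 48.2 CPM in blood gate-negative cells. Unlike Slfn4, it had about the same level in members of both tissues. Slfn8 rose by 3.45 ± 0.18 in tumor and 2.70 ± 0.25 in blood (log2). Slfn9, at 34.3 and 20.3 CPM in tumor members and 1.76 and 0.985 CPM in tumor gate-negative cells, passed the test only there; in blood it was at 0 and 7.71 CPM in members and 0 in gate-negative cells, and the tissues' difference had an adjusted p of 0.848.

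The guanylate-binding proteins and immunity-related GTPases, which attack the vacuoles of intracellular microbes and are typical targets of interferon gamma, rose for 9 of 9 tested genes in tumor and 8 of 9 in blood, with medians of 3.41 and 2.66 (log2). Gbp2 had 233 and 183 CPM in tumor members, against 28.1 and 12.2 CPM in tumor gate-negative cells, a rise of 3.47 ± 0.21 (edgeR adjusted p = 9.16e-14). Blood members had 147 and 83.9 CPM, against 22.6 and 15.1 CPM in blood gate-negative cells, a rise of 2.54 ± 0.32 (edgeR adjusted p = 2.29e-06). Gbp5 had 87.5 and 106 CPM in tumor members and 15.8 and 2.63 CPM in tumor gate-negative cells, and in blood it was at least 6.31-fold higher in members, with 19 UMIs against 0 and a floor of 3 counts over the group. Ifi47 and Irgm1 rose by 5.10 ± 0.27 and 3.41 ± 0.22 in tumor and by 3.96 ± 0.42 and 2.90 ± 0.31 in blood; Ifi47 overlaps Olfr56 on the same strand, so reads of these genes may be split.

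**Figure D3:**
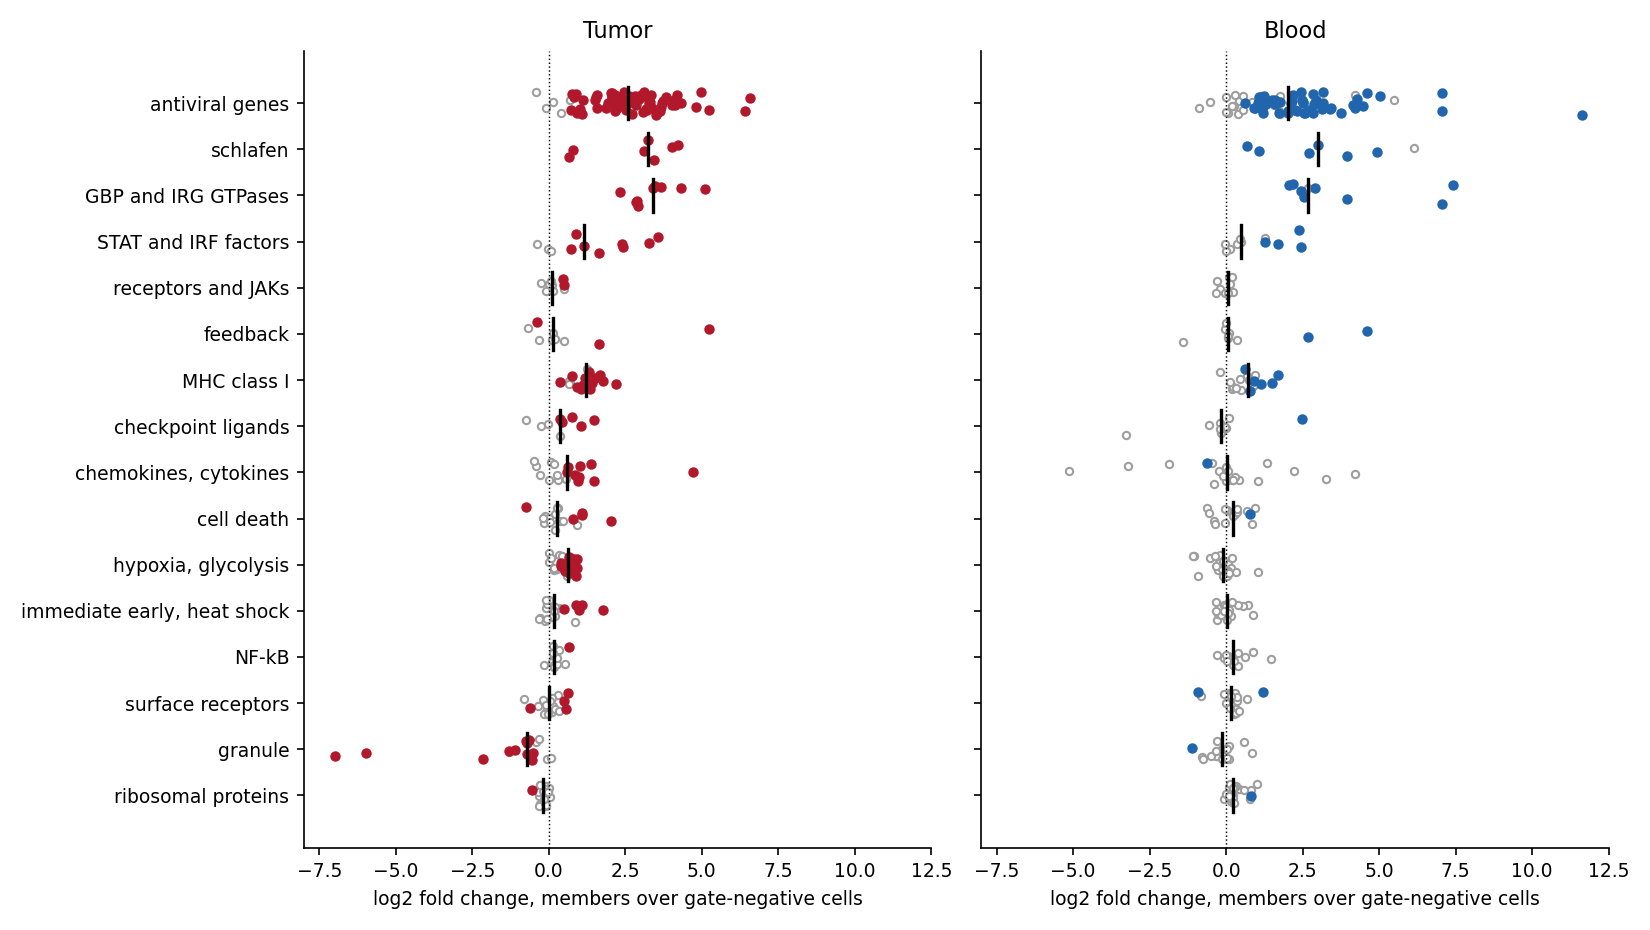
Log2 fold change of members over matched gate-negative cells for each tested gene of 16 lists, in tumor and in blood. Filled points passed the adjusted p of 0.05 and the bar marks the list median: the antiviral, schlafen and GTPase lists lie highest in both tissues, with medians of 2.60, 3.25 and 3.41 in tumor, and the granule list has a median of -0.71 in tumor, with 1 of 17 genes above 0.

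Genes of the signalling path itself were also compared. Of 11 transcription factor genes, 8 rose in tumor members and 4 in blood members. Among them, Stat2, Irf9 and Irf7 rose in both, and Irf1, Irf2, Irf5 and Nlrc5 passed the test in tumor alone. Stat3, Irf3 and Irf8 passed in neither tissue. Irf7 (chr7:141262706-141266481, mm10), which amplifies the response, had 302 and 239 CPM in tumor members and 21.1 and 23.3 CPM in tumor gate-negative cells, a rise of 3.56 ± 0.18 (edgeR adjusted p = 1.67e-15). In blood Irf7 had 229 and 224 CPM in members and 45.3 and 39.7 CPM in gate-negative cells, a rise of 2.45 ± 0.23 (edgeR adjusted p = 6.47e-09).

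Stat2 had 157 and 113 CPM in tumor members and 13.5 CPM in each tumor gate-negative set. Its blood values were 106 and 86.8 CPM in members and 19.4 and 17.0 CPM in gate-negative cells. The gate-negative cells of tumor lay below those of blood for Stat2, Irf9 and Irf7, a gap that was not tested. Irf9 had 218 and 211 CPM in tumor members and 40.4 and 40.7 CPM in tumor gate-negative cells, and 154 and 149 CPM in blood members and 67.9 and 60.4 CPM in blood gate-negative cells.

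For receptors and kinases, 2 of 9 genes passed in tumor and 0 in blood. The kinase gene Jak1 rose by 0.51 ± 0.11 and the receptor chain gene Il10rb by 0.48 ± 0.14 (log2) in tumor; both calls were lost with library totals and with DESeq2. Ifnar1 had 67.3 and 61.1 CPM in tumor members and 57.3 and 60.8 CPM in tumor gate-negative cells, a log2 difference of 0.11 ± 0.19 (edgeR adjusted p = 0.792), and its sign turned with library totals and with a gate of 10 UMIs. Ifnar2 gave 0.15 ± 0.13 in tumor and -0.29 ± 0.19 in blood, and Ifngr1 gave -0.25 ± 0.15 and -0.19 ± 0.19. None of these 3 receptor genes passed the test in either tissue, which does not show that their levels were the same.

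Interferon genes themselves were nearly undetected. Summed over the kept cells, the sorted tumor libraries held 4 UMIs of Ifnb1, 4 of Ifna16 and 1 of Ifna13, all in replicate 2, and 1 and 2 of Ifnk, the blood libraries held 1 of Ifnab, and the other ligands, Ifng included, were at 0 UMIs there. The kept cells of the CD45+ libraries held 6 and 4 UMIs of Ifng and 0 of the other ligands. Of the feedback genes, Usp18 and Socs1 rose in both tissues. Usp18, a protease that removes ISG15 and blocks the receptor, had 266 and 291 CPM in tumor members and 3.51 and 9.85 CPM in tumor gate-negative cells, and 157 CPM in each blood member set and 0 and 8.50 CPM in blood gate-negative cells. Socs1, an inhibitor of the kinases, rose by 1.63 ± 0.22 in tumor and 2.68 ± 0.59 in blood, and Ptpn1, a phosphatase, fell by 0.37 on the log2 scale in tumor (SE 0.12).

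**Figure D4:**
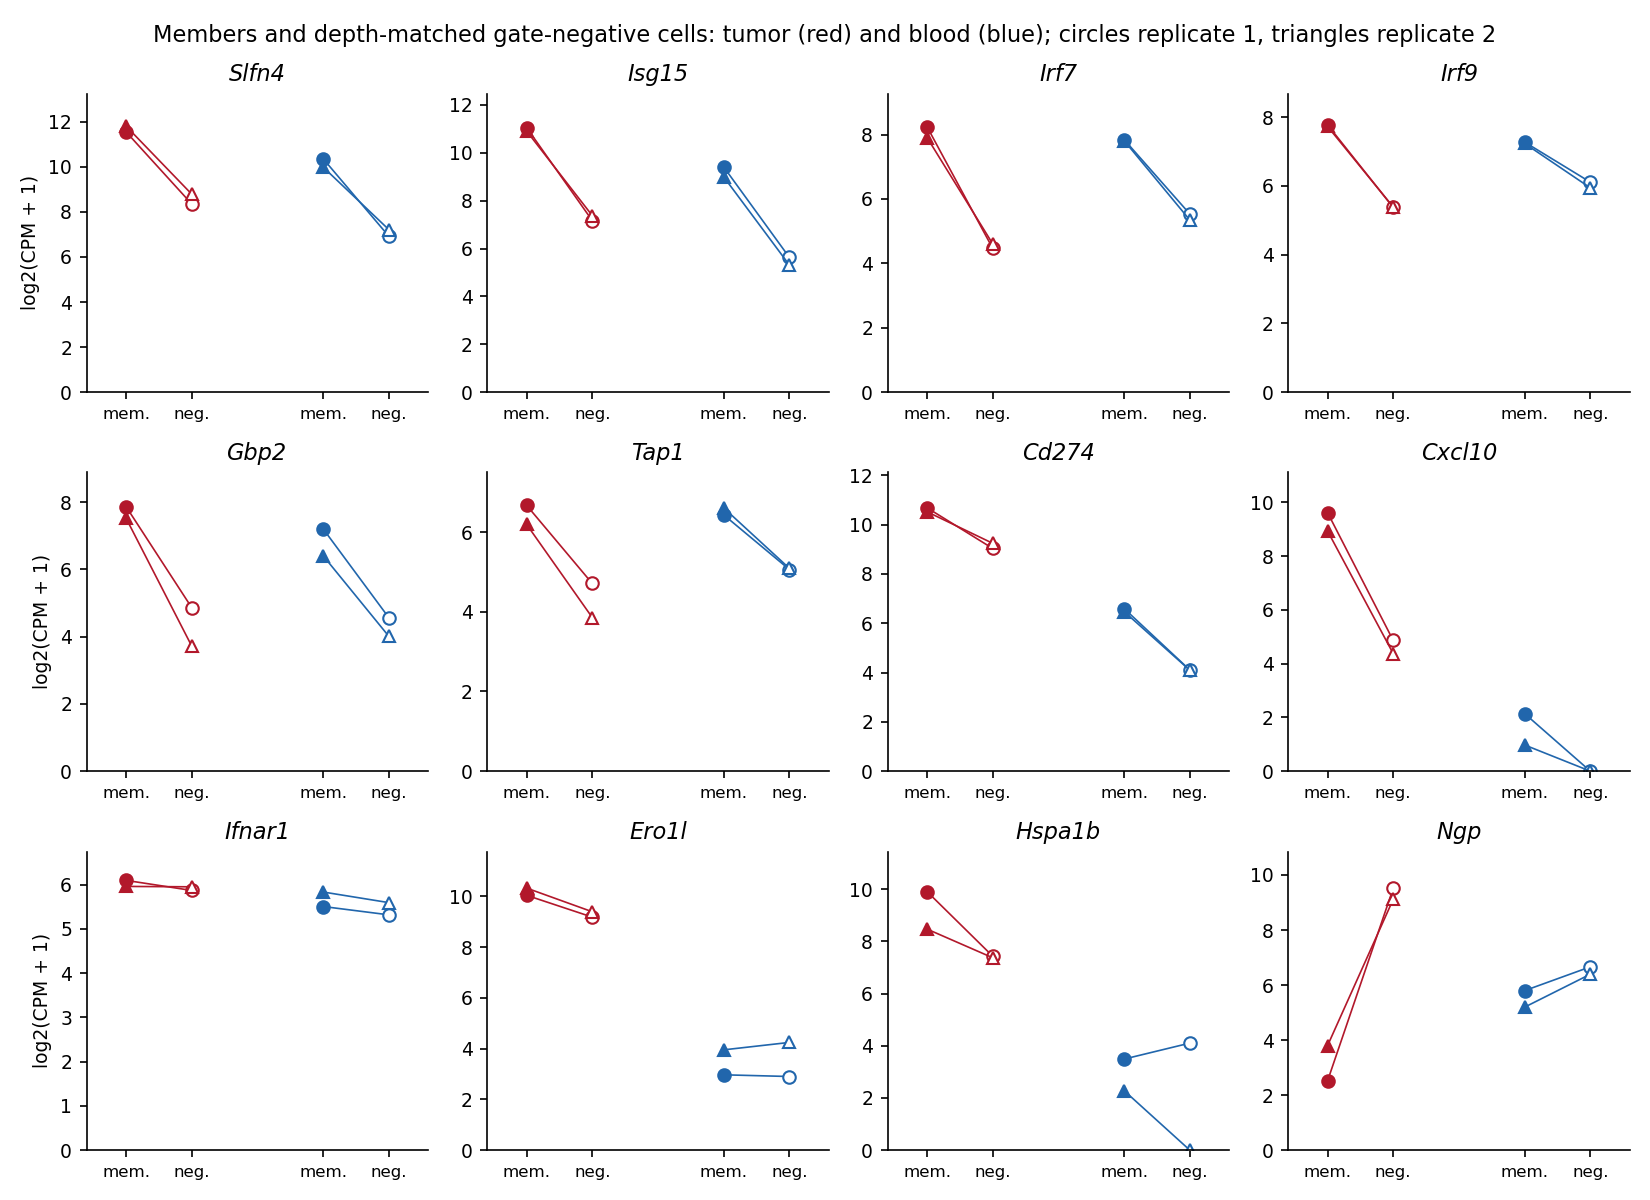
Level of 12 genes as log2(CPM + 1) in members (filled) and matched gate-negative cells (open), with tumor in red on the left and blood in blue on the right, circles for replicate 1 and triangles for replicate 2. For Isg15, Irf7 and Irf9 filled points lie above open ones in both tissues; Ifnar1 shows no such gap, Cxcl10 is at 0 to 3.41 CPM in blood, and Ngp is lower in members of tumor.

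Genes of antigen presentation on MHC class I rose for 14 of 18 in tumor and 6 of 18 in blood, with medians of 1.20 and 0.72 (log2). Tap1, a subunit of the peptide transporter, had 101 and 72.2 CPM in tumor members and 25.2 and 13.5 CPM in tumor gate-negative cells, a rise of 2.21 ± 0.22 (edgeR adjusted p = 1.04e-08). Blood members had 85.3 and 96.4 CPM and blood gate-negative cells 32.3 and 33.0 CPM, a rise of 1.502 ± 0.29 (edgeR adjusted p = 0.00134). Psmb8, a subunit of the immunoproteasome, had 204 and 122 CPM in tumor members and 70.2 and 49.9 CPM in gate-negative cells, and rose by 1.41 ± 0.16 there and by 1.71 ± 0.20 in blood. B2m, the class I light chain, rose by 1.33 ± 0.11 in tumor and 0.77 ± 0.13 in blood, and H2-Q4, H2-T22 and H2-Q6 rose by 1.77, 1.66 and 1.53 in tumor. Tap2, Tapbpl, Psmb10 and Erap1 passed in neither tissue. With DESeq2, 9 of the 18 rose in tumor and 2 in blood.

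Of 9 checkpoint and suppressive genes, 5 rose in tumor and 1 in blood. Cd274 (chr19:29367455-29388095, mm10), which encodes the PD-1 ligand PD-L1, was the one called in both. It had 1641 and 1467 CPM in tumor members, against 522 and 603 CPM in tumor gate-negative cells, a rise of 1.46 ± 0.12 (edgeR adjusted p = 7.25e-11). In blood it had 95.6 and 87.7 CPM in members, against 16.2 and 16.1 CPM in gate-negative cells, a rise of 2.47 ± 0.30 (edgeR adjusted p = 8.29e-07). The 4 sets did not overlap, and even gate-negative tumor cells lay above blood members; the difference of the rises, -1.01 ± 0.34, had an adjusted p of 0.2. Pdcd1lg2, the other PD-1 ligand, had 162 and 151 CPM in tumor members and 62.6 and 87.0 CPM in tumor gate-negative cells, and Cd86, Lgals3 and Arg2 rose by 0.75, 0.44 and 0.36 (log2) in tumor. With library totals 2 of the 9 rose in tumor, and with DESeq2 1.

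Chemokines and cytokines rose for 9 of 20 genes in tumor and for 0 in blood, where Cxcl2 fell. Cxcl10 (chr5:92346638-92348889, mm10) had 785 and 489 CPM in tumor members and 28.1 and 19.7 CPM in tumor gate-negative cells, a rise of 4.71 ± 0.17 (edgeR adjusted p = 1.99e-18). In blood members it was seen as 1 UMI in each library. It was seen in few cells: 73 of 366 and 104 of 683 paired tumor members had a Cxcl10 UMI, against 16 and 32 of their gate-negative partners, and the top 5 cells held 47.0% and 41.0% of the members' Cxcl10 UMIs. Thinned to 2000 UMIs, 17.1% and 10.9% of tumor members had one (20.2% and 15.2% unthinned), against 2.42% and 1.83% of tumor gate-negative cells (3.71% and 3.19% unthinned). Cxcl9, a related chemokine too sparse to be tested and named after its values were seen, had 131 UMIs in 6 members of tumor replicate 1 and 0 in members of replicate 2.

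Ccl4, a chemokine that attracts macrophages and other leukocytes, had 12624 and 12348 CPM in tumor members and 5074 and 7598 CPM in tumor gate-negative cells, a rise of 1.01 ± 0.12; blood members had 37.5 and 18.3 CPM and blood gate-negative cells 12.9 and 10.4 CPM. Il18 and Il18bp, an inflammatory cytokine and its soluble inhibitor, rose by 1.38 ± 0.21 and 1.48 ± 0.40 in tumor. Il15, which sustains natural killer and memory T cells, had 688 and 629 CPM in tumor members and 315 and 353 CPM in tumor gate-negative cells. Cxcl2, a neutrophil attractant, had 50327 and 62357 CPM in tumor members and 40503 and 51053 CPM in tumor gate-negative cells, which did not pass (0.30 ± 0.10, edgeR adjusted p = 0.0546). In blood it had 720 and 836 CPM in members and 1323 and 1108 CPM in gate-negative cells, a fall of 0.61 on the log2 scale (SE 0.12, edgeR adjusted p = 0.00132).

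Of 10 nucleic acid sensing genes, Cgas, Tbk1 and Aim2 rose in tumor and none passed in blood; Cgas, the cytosolic DNA sensor, had 28.3 and 32.4 CPM in tumor members and 2.93 and 4.27 CPM in tumor gate-negative cells. The calls of Tbk1 and Aim2 were lost with library totals and with DESeq2, which gave Cgas no adjusted p. Of 17 cell death genes, Casp4, Casp8, Pmaip1 and Daxx rose in tumor, and Casp4 rose in blood too. Casp4, the sensor of cytosolic lipopolysaccharide, had 453 and 457 CPM in tumor members and 188 and 245 CPM in tumor gate-negative cells, and 160 and 184 CPM in blood members and 120 and 94.4 CPM in blood gate-negative cells. Its sets were separated in both tissues, by 1.07 ± 0.13 in tumor and 0.79 ± 0.20 in blood (log2). With DESeq2, 2 of the 17 cell death genes rose in tumor, and the blood call of Casp4 was lost.

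Genes of glycolysis and hypoxia were higher in members of the tumor: 16 of 26 rose, with a median of 0.62 and called values from 0.40 to 0.93 (log2), and 0 of 26 rose in blood, where 10 of 26 estimates lay above 0. One gene, Tpi1 of glycolysis, passed the test of the difference (1.69 ± 0.39, edgeR adjusted p = 0.0312), and its call was lost in 11 of 17 alternatives, DESeq2 and library totals among them. Ero1l, an oxidase of the endoplasmic reticulum induced by hypoxia, had 1050 and 1279 CPM in tumor members and 579 and 670 CPM in tumor gate-negative cells, a rise of 0.90 ± 0.11 (edgeR adjusted p = 5.28e-07). In blood it had 6.83 and 14.5 CPM in members and 6.47 and 17.9 CPM in gate-negative cells, too few to set the tissues apart for this gene (edgeR adjusted p = 0.309 for the difference). P4ha1, a collagen hydroxylase, had 615 and 838 CPM in tumor members and 395 and 371 CPM in tumor gate-negative cells. With library totals 12 of 26 rose in tumor, and with DESeq2 8.

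Granule genes, made in marrow precursors, fell for 12 of 17 in tumor and 1 of 17 in blood, with medians of -0.71 and -0.12. Ngp (chr9:110419747-110423012, mm10), a granule protein of immature neutrophils, had 4.71 and 12.9 CPM in tumor members and 731 and 554 CPM in tumor gate-negative cells, and Camp had 2.02 and 2.58 CPM in members and 624 and 155 CPM in gate-negative cells. Few cells held these transcripts: 2 and 4 paired gate-negative cells held 99.2% and 97.4% of the Ngp and Camp UMIs of their sets. Over all kept tumor cells, 0 of 372 and 0 of 683 members and 7 of 2507 and 6 of 3984 gate-negative cells had 20 or more such UMIs; 0 members allows shares of up to 0.806% and 0.439%. Removing cells with 5 or more Ngp and Camp UMIs, and those with 3 or more UMIs of 6 phagocyte genes, left 8 of 16 granule genes lower in tumor, with a median of -0.49, and 13 of 26 glycolysis and hypoxia genes higher; DESeq2 on the full sets called 7 of 17 granule genes lower. This step was chosen after seeing the data.

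Other granule genes were carried by many cells, among them Cd177, a surface and granule protein, Retnlg and Hp, which encodes haptoglobin. Cd177 had 81.4 and 163 CPM in tumor members and 247 and 345 CPM in tumor gate-negative cells, a fall of 1.30 on the log2 scale (SE 0.15, edgeR adjusted p = 1.96e-07). Retnlg had 2418 and 8232 CPM in tumor members and 4469 and 9167 CPM in tumor gate-negative cells, so the libraries differed more than the sets did. Hp fell by 0.71 on the log2 scale (SE 0.12, edgeR adjusted p = 4.2e-05) and was seen in 125 and 347 tumor members and 218 and 439 of their gate-negative partners. The 6 phagocyte genes were Fn1, Pltp, Cd36, F10, Prg4 and Retnla. Over all kept tumor cells they marked 18.3% and 13.8% of members and 10.97% and 9.21% of gate-negative cells. Among the paired cells of tumor replicate 1 they marked 17.8% of members and 16.4% of gate-negative cells. They marked 0 of the blood members. In blood they marked 0.0761% and 3.003% of gate-negative cells. 

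Of 20 surface receptor genes, Ccrl2, Cxcr4 and Fcgr4 rose and Fpr1 fell in tumor, and Ccrl2 rose and Cd14 fell in blood. Over all 7784 tested genes 10.1% rose and 2.25% fell in tumor, and 1.76% rose and 0.308% fell in blood. Ccrl2, a chemerin-binding receptor, had 2258 and 1657 CPM in tumor members and 1484 and 1033 CPM in tumor gate-negative cells. Of 19 immediate early and heat shock genes, Jun, Atf3, Hspa1a, Hspa1b and Hsp90aa1 rose in tumor and none passed in blood. Hspa1b, a heat shock chaperone, had 959 and 354 CPM in tumor members and 171 and 165 CPM in tumor gate-negative cells, but 5 cells held 70.5% of its UMIs in the members of tumor replicate 1. In the CD45+ libraries Hspa1b had the opposite sign, -1.44 ± 0.40 (edgeR adjusted p = 0.0137).

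Of 13 NF-kappaB genes, Relb rose in tumor and none passed in blood, and of 24 ribosomal protein genes, Rpsa fell in tumor and Rpl32 rose in blood. These single calls are not read as a change of their lists, as 10.1% of all tested genes rose and 2.25% fell in tumor and 1.76% rose in blood. With library totals 9 ribosomal genes fell in tumor, and with DESeq2 the tumor calls of the surface receptor, NF-kappaB and ribosomal lists were lost. Outside all lists, Plac8, a small protein of myeloid and lymphoid cells, had 402 and 235 CPM in tumor members and 64.4 and 77.2 CPM in tumor gate-negative cells, and 198 and 204 CPM in blood members and 9.70 and 24.5 CPM in blood gate-negative cells. Fap, a membrane peptidase best known from fibroblasts, had 55.9 and 54.5 CPM in tumor members and 9.36 and 2.96 CPM in tumor gate-negative cells, and in blood was at least 8.97-fold higher (27 UMIs against 0). Zup1, a deubiquitinase, rose by 3.47 ± 0.26 in tumor and 1.68 ± 0.41 in blood, and the class I-like gene H2-T24 by 3.46 ± 0.32 and 2.23 ± 0.31.

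Gm13822, Gm44148 and A930037H05Rik also rose in both tissues and lie antisense to Oasl1, Usp18 and Rnf213. How the counting used strand is not stated in the labels, so their reads cannot be told from those of their partners. The falls outside the lists in tumor were led by Plcb1, Enah, Heatr6 and Grk6, at -1.76, -1.60, -1.53 and -1.503 (log2), and that of Plcb1 turned to 1.13 when all gate-negative cells were used without matching.

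The size of the member difference was tested between tissues in the same model. It differed for 57 of 7784 genes (0.732%), 39 with a greater value in tumor (0.501%) and 18 with a smaller one (0.231%); without TMM scaling these were 13 and 14. Without blood replicate 2, 10 were greater, and without tumor replicate 2, 64. With the immature and phagocyte-marked cells removed 5 and 1 were left, all 6 among the 57. For Slfn4 and Isg15 the differences were 0.10 ± 0.20 and -0.04 ± 0.24 (edgeR adjusted p = 0.928 and 0.988).

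Of the antiviral list, Ddx60 and Epsti1 passed, both greater in tumor. Ddx60, a helicase that aids RNA sensing, had 510 and 415 CPM in tumor members and 32.8 and 24.0 CPM in tumor gate-negative cells, and 645 and 593 CPM in blood members and 90.6 and 113 CPM in blood gate-negative cells. Epsti1 had 312 and 252 CPM in tumor members and 42.7 and 41.1 CPM in tumor gate-negative cells, and 498 and 381 CPM in blood members and 171 and 124 CPM in blood gate-negative cells. For both, tumor values lay below blood values in members and in gate-negative cells. The log2 differences were 1.51 ± 0.24 and 1.14 ± 0.23 (edgeR adjusted p = 0.00103 and 0.0108), and Ddx60 stood at an adjusted p of 0.0531 with the immature and phagocyte-marked cells removed.

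Of the other lists, Cxcl2, Tpi1 and Hsp90aa1 had greater values in tumor and Ngp, Camp, Hp, Rpsa and Rpl32 smaller ones. Rgs1, which dampens chemokine receptor signalling, had 387 and 371 CPM in tumor members and 126 and 232 CPM in tumor gate-negative cells, against 3.41 and 5.79 CPM in blood members and 16.2 and 36.8 CPM in blood gate-negative cells, a difference of 3.70 ± 0.58 (edgeR adjusted p = 0.000918). Most of the 6 largest differences each way rested on few cells. Fn1 had 3 UMIs in blood members and 281 in blood gate-negative cells, a ratio of 93.9, gate-negative cells over members (counting interval 31.8 to 458), and all 281 lay in 5 cells of blood replicate 2. Akap6 had 0 UMIs in blood members and 31 in blood gate-negative cells, at least 10.4-fold lower in members by counts alone. Those 31 lay in 2 cells of replicate 1 and 1 of replicate 2, so the bound takes no account of spread between cells. Gm15987 had 64 UMIs in 1 blood member. Ngp and Camp had 1250 and 1687 and 1067 and 471 UMIs in the tumor gate-negative sets, nearly all in the few cells described above.

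Members of tumor and blood were also set against each other directly, with all 1304 cells summed per library. At this level 3230 of 7160 genes differed (45.1%), 1869 higher in tumor (26.1%) and 1361 lower (19%), and with library totals 1253 and 2141, as the median of all genes moved to -0.41 from 0.05. Slfn4 had 2776 and 3559 CPM in tumor members and 1265 and 947 CPM in blood members, a difference of 1.53 ± 0.24 (edgeR adjusted p = 0.000163). Isg15 had 1981 and 1915 CPM in tumor members and 656 and 477 CPM in blood members, a difference of 1.80 ± 0.23 (edgeR adjusted p = 2.08e-05).

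The antiviral list was mixed, with 33 of 69 genes higher in tumor members and 8 lower, a median of 0.64, and 23 and 16 with library totals. Irf7 did not pass (0.28 ± 0.20, edgeR adjusted p = 0.272). Of 18 class I genes 4 were higher and 4 lower, Psmb9 and H2-T23 among the lower at -1.46 ± 0.30 and -0.95 ± 0.23. Psmb9 and H2-T23 were each higher in members than in gate-negative cells of either tissue.

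**Figure D5:**
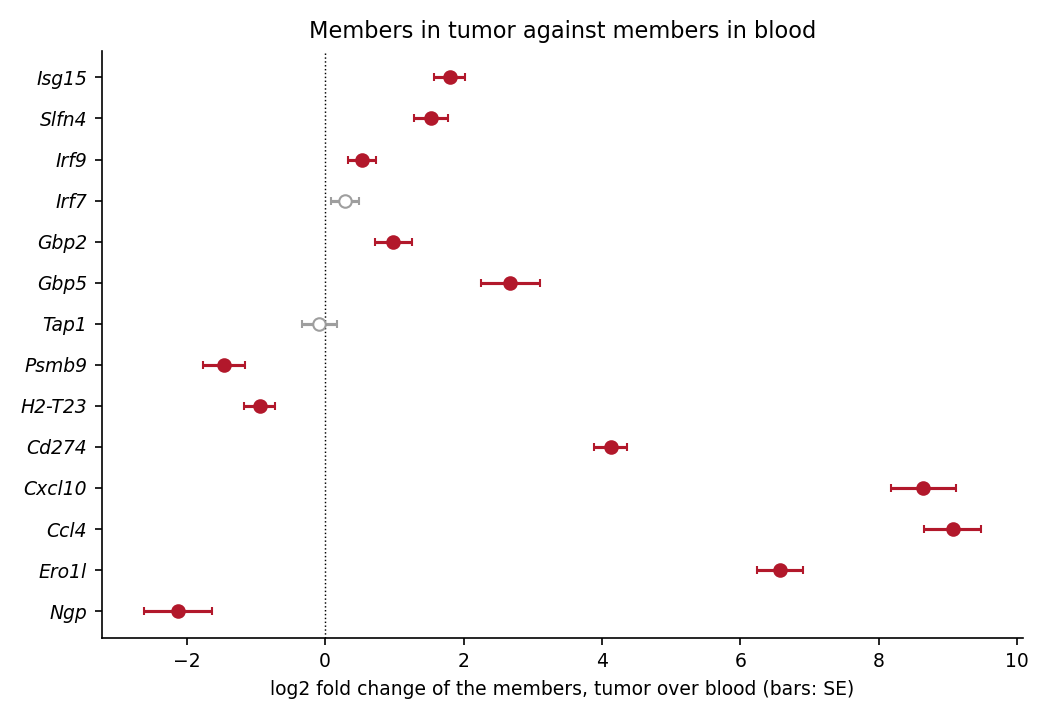
Log2 fold change of tumor over blood members, with SE as bars, for 14 genes. Cxcl10 (8.64), Cd274 (4.13) and Slfn4 (1.53) lie above 0, whereas Irf7 (0.28) did not pass the test and Psmb9 (-1.46) lies below 0.

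Chemokines and cytokines were higher in tumor members for 17 of 20 genes and lower for 1, with a median of 4.76 (log2), and checkpoint genes for 7 of 8. Glycolysis and hypoxia genes were higher for 21 of 25 and lower for 1, with a median of 3.38. Cd274 had 1539 and 1460 CPM in tumor members and 92.2 and 82.0 CPM in blood members, a difference of 4.13 ± 0.24 (edgeR adjusted p = 1.78e-08). Cxcl10 had 725 and 487 CPM in tumor members and 3.29 and 0.901 CPM in blood members. Il1a, an alarmin cytokine, had 574 and 335 CPM in tumor members and was at 0 in blood members; F10, coagulation factor X, had 314 and 269 CPM in tumor members and was at 0 in blood members. The largest falls were in genes that were low in tumor members, such as Asb7, at 4.87 and 5.87 CPM in tumor members and 98.8 and 77.5 CPM in blood members.

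The CD45+ tumor libraries repeated the comparison in cells that had not been sorted for LY6G. There 40 and 66 pairs gave 138 called genes of 3334 (4.14%), 117 higher (3.51%) and 21 lower (0.63%), with 1 residual degree of freedom. Of the 117, 104 were also higher in sorted tumor members, which is 88.9% of the CD45+ calls and 13.2% of the tumor calls, and of the 21 lower, 8 were (38.1% and 4.57%). The antiviral list rose for 41 of 62 genes, with a median of 1.88 (log2), the schlafens for 5 of 5 and the GTPases for 6 of 6. DESeq2 called 13 of the 62, 2 of the 5 and 1 of the 6, and gave an adjusted p for 50 of the antiviral, 5 of the schlafen and 2 of the GTPase genes. Slfn4 had 1499 and 2425 CPM in cells past the gate and 387 and 437 CPM in gate-negative cells, a rise of 2.24 ± 0.24 (edgeR adjusted p = 1.13e-12). Cd274 had 1296 and 1005 CPM in cells past the gate and 308 and 380 CPM in gate-negative cells, a rise of 1.70 ± 0.26, and Cd274 was the one checkpoint gene of 8 to pass.

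Glycolysis and hypoxia genes rose for 2 of 23 and class I genes for 1 of 13 in the CD45+ libraries. Granule genes fell for 3 of 12. The cells past the gate also carried macrophage markers at 5900 and 9851 CPM, and gate-negative cells at 8045 and 8114. Members of the sorted tumor libraries had 1432 and 914. Plasmacytoid dendritic cell markers summed to 776 and 953 CPM past the gate and 463 and 424 in gate-negative cells. Of these, 3 of 4 tested rose, Bst2 of the antiviral list among them. Dendritic markers were at 934 and 1824 CPM past the gate and 1785 and 521 in gate-negative cells. The platelet list was at 453 and 1657 past the gate and 520 and 56.8 in gate-negative cells. What part such cells had was not tested. Removing every cell with a C1q UMI left 15 genes higher and 0 lower by edgeR, with 159 at an unadjusted p under 0.05; DESeq2 on the full sets called 20 higher and 1 lower.

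The ISRE core was more frequent in promoters of genes called in both tissues than in those of all tested genes. It was found in 43 of 111 such promoters (38.7%), against 275 of 6126 promoters of all tested genes (4.49%). Promoters are counted here by gene, and a gene with more than 1 promoter counted once if any of them held the motif. Genes higher in tumor and not called in blood held it in 38 of 519 promoters (7.32%). By list it was in 24 of 56 antiviral promoters (42.9%), 7 of 8 GTPase promoters, 3 of 7 schlafen promoters and 5 of 16 class I promoters. The GAS core TTCNNNGAA was in 14.4% of promoters of genes called in both tissues, against 8.23% of those of all tested genes and 9.55% of all promoters. By list it was in 12 of 56 antiviral promoters (21.4%), 4 of 8 GTPase promoters, 0 of 7 schlafen promoters and 1 of 16 class I promoters. These shares describe sequence in a fixed window and were not tested.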

How the data were processed

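The files hold raw UMI counts of 32285 genes in the cells of 6 libraries, 2 per group, as the authors deposited them. The submitters' processing notes name Cell Ranger 7.1.0 and the mm10 build; how strand was used is not stated there. Groups and replicate numbers came from the labels.

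Cells were gated as described, and each member was paired without replacement to the gate-negative cell nearest in total UMIs, within 10%. Counts were summed per library and set. Gate genes were removed, low genes were filtered, and TMM-scaled sums were tested with edgeR 4.0.16 (limma 3.58.1, R 4.3.3). One fit held the 8 sums of the sorted libraries with the library as a block and a member effect per tissue (2 residual degrees of freedom), and separate fits compared tumor with blood members (group only) and the CD45+ sets (library block). The edgeR step was tested on simulated data, and the DESeq2 step was not. Doublets were left in, and the highest Scrublet scores (scanpy 1.11.5) were removed as an alternative. Same-numbered tumor and blood samples did not deviate together (correlation -0.02 for members), so numbers were not used as pairs. Libraries of 1 group differed by more than sampling noise.

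The members and lists were chosen with earlier results of these data known. Per comparison and list, up to 4 genes with the largest called changes of the same sign in each library were eligible to be named, outside the lists the 8 largest rises and 6 largest falls, and between tissues the 6 largest each way at 20 CPM or more; Slfn4, Isg15, Stat2, Irf9, Irf7, Ifnar1, Ifnar2, Ifngr1, Cd274 and Cxcl10 were always named, and 1 more such gene is not reported here. Other genes named were picked after their values were seen. Of 369 list genes, 6 were not analysed here. Positions come from GENCODE vM21, promoters from RefSeq on GRCm38.p6. Alternatives changed the gate, the matching, doublet and C1q filters, the block, the scaling, the count filter and the tool (DESeq2 1.42.0), and left out each library.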

Additional observations from a re-analysis of the deposited data

Results flagged for a closer look

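The difference of the member effect between tissues, tumor minus blood, passed the edgeR test across all genes (adjusted p under 0.05) for the following described genes, with values on the log2 scale. All calls of a greater value in tumor were lost at a gate of 10 UMIs, without the library block, without the highest Scrublet scores and with no count filter, where no gene passed with a greater value; at an unadjusted p under 0.05, 538, 497, 753 and 783 genes differed either way.

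Among interferon-stimulated genes it was 1.512 for Ddx60 and 1.136 for Epsti1, and 3.195 for Olfr56, which overlaps Ifi47 on the same strand. Members rose in both tissues for Ddx60 (4.04 in tumor, 2.53 in blood) and Epsti1 (2.73 in tumor, 1.59 in blood). Epsti1 kept its call with the immature and phagocyte-marked cells removed (1.38), Ddx60 stood at an adjusted p of 0.0531 there and Olfr56 at 0.191. Over all alternatives with an adjusted p, the call was kept in 10 of 17 for Ddx60, 8 of 17 for Epsti1 and 5 of 16 for Olfr56.

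Inflammatory and metabolic genes with a greater value in tumor were Rgs1 at 3.695, Tpi1 at 1.694, Hsp90aa1 at 1.248 and Cxcl2 at 0.9113. For Rgs1 and Cxcl2 the direction was up in tumor members (1.102 and 0.30, the value of Cxcl2 not past the test) and down in blood members (-2.59 and -0.61). Both kept their call with the immature and phagocyte-marked cells removed (2.98 and 0.81), and Tpi1 (adjusted p 0.125) and Hsp90aa1 (0.245) did not. Rgs1 and Cxcl2 each kept it in 10 of 17 alternatives, Tpi1 in 6 and Hsp90aa1 in 5; Rgs1 lost it without blood replicate 2 and rested in blood on 1 and 6 member UMIs against 5 and 39 in 3 and 8 gate-negative cells.

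Genes with a greater value in tumor through a fall in blood were Akap6 at 10.03, Cd36 at 8.109, Klf4 at 7.506, F10 at 6.759, Fn1 at 5.66, Mmp19 at 4.277, Sh3bgrl at 3.248 and Plxdc2 at 2.752. Their blood counts were few: members had 0 UMIs of Akap6, Cd36, Klf4 and F10, against 31, 29, 25 and 9 in gate-negative cells, the 31 of Akap6 lay in 2 cells of replicate 1 and 1 of replicate 2, and the 25 of Klf4 in 1 cell. With the immature and phagocyte-marked cells removed Akap6 kept its call (9.47), F10, Mmp19, Sh3bgrl and Plxdc2 lost it (adjusted p 0.769, 0.986, 0.267 and 0.845), and Cd36, Klf4 and Fn1 gave no value.

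Genes with a smaller value in tumor were Ctla2a at -8.067, Camp at -7.836, Cd38 at -7.489, Gm15987 at -5.764, Ngp at -4.864, Csta2 at -3.444, Rpsa at -1.349, Rpl32 at -1.102 and Hp at -0.7384. Single cells weighed heavily here too: 27 UMIs of Csta2 lay in 1 member of blood replicate 1 and 64 of Gm15987 in 1 member of blood replicate 2, and 8 gate-negative cells of tumor replicate 2 held 189 of Ctla2a. With the immature and phagocyte-marked cells removed Csta2 kept its call (-3.69), Ngp moved to 0.05, Cd38, Hp, Rpsa and Rpl32 lost their calls (adjusted p 0.744, 0.138, 0.923 and 0.326), and Camp, Ctla2a and Gm15987 gave no value. Fitted values of genes with 0 UMIs in a set depend on the prior count and are no bounds.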

How the results depend on the processing

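The share difference between tumor and blood kept its direction under every alternative run, from 7.967 to 9.678 percentage points with 1 library left out. Of 2755 alternative values for 170 gene results, 2157 kept direction and call, 574 kept direction and lost the call, and 24 reversed. Counts below are higher then lower, and the cause of each change was not tested. Blood members were few (59 and 190 cells), which limits the counts behind the blood results. DESeq2 gave no adjusted p for 2113 genes in tumor, 5282 in the difference between tissues and 905 in the CD45+ libraries.

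For members against gate-negative cells in tumor (788 and 175), counts were 336 and 18 without the library block, 484 and 484 with library totals, 283 and 10 with no count filter and 305 and 15 with DESeq2. The lower count was 102 at a gate of 10 UMIs, 109 without the highest Scrublet scores, 102 without cells with C1q, 87 when matched on genes detected, 357 unmatched and 101 without immature and phagocyte-marked cells. Leaving out 1 library gave 374 to 986 higher and 35 to 273 lower. In blood (137 and 24) they were 87 and 2 without the block, 41 and 1 with no filter and 82 and 6 with DESeq2. The lower count in blood was 11 at a gate of 10, 9 with a gate per 10000 UMIs, 10 without the highest Scrublet scores, 13 without C1q cells, 13 when matched on genes and 3 without immature and phagocyte-marked cells; leaving out 1 library gave 96 to 157 higher and 15 to 34 lower.

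The difference between tissues (39 and 18) was the least stable. It gave 80 higher at a gate of 3, and higher and lower counts of 0 and 1 at a gate of 10, 0 and 0 without the highest Scrublet scores, 15 and 5 without C1q cells, 6 and 2 when matched on UMIs without gate genes, 6 and 1 when matched on genes, 132 and 50 unmatched, 5 and 1 without immature and phagocyte-marked cells, 0 and 1 without the block, 0 and 0 with no filter and 4 and 3 with DESeq2; library totals gave 13 higher. Genes at an unadjusted edgeR p under 0.05 numbered 538 at a gate of 10, 753 without the highest Scrublet scores, 497 without the block and 783 with no filter. Leaving out 1 library gave 10 to 64 higher and 15 to 19 lower.

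Tumor against blood members (1869 and 1361) gave 1244 and 899 at a gate of 10, and lower counts of 2141 with library totals and 790 with DESeq2; leaving out 1 library gave 1400 to 1903 and 828 to 1341. In the CD45+ libraries (117 and 21) counts were 44 and 2 at a gate of 10, 66 and 4 without the highest Scrublet scores, 15 and 0 without C1q cells, 67 and 10 without immature and phagocyte-marked cells, 7 and 0 without the block and 20 and 1 with DESeq2. The lower count was 12 when matched on UMIs without gate genes, 62 unmatched, 9 with library totals and 9 with no filter. Genes at an unadjusted p under 0.05 numbered 159 without C1q cells and 221 without the block. Leaving out a CD45+ library leaves no residual degrees of freedom and was not run.

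With the replicate number as a block, tumor against blood members gave 1870 and 1342; members correlated at -0.02 and gate-negative cells at 0.01 between same-numbered samples, so the numbers were not used as pairs.

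Log2 values that reversed were, for the difference between tissues, Camp at 0.08694 when matched on genes, Ngp at 0.04725 without immature and phagocyte-marked cells, Fn1 at -1.241 and -1.321, Klf4 at -0.1971 and -0.8305 and Mmp19 at -4.567 and -0.4833 at a gate of 10 and a gate per 10000 UMIs, Plxdc2 at -0.1184 at a gate of 10, Mmp19 at -0.4191 without immature and phagocyte-marked cells, and, with 1 library left out, Fn1 between -6.205 and 6.712, Klf4 between -0.2382 and 8.197 and Mmp19 between -0.4458 and 4.535, each lowest without blood replicate 2. In tumor they were Ltf at 0.5905 without immature and phagocyte-marked cells, Plcb1 at 1.131 unmatched, Ifnar1 at -0.07574 at a gate of 10 and -0.07129 with library totals, and Ifnar2 at -0.02724 with library totals. In blood S100a10 was at 5.046 at a gate of 10. In the CD45+ libraries Ifnar1 was at -0.01743 unmatched, Ifnar2 at -0.0225 at a gate of 3 and -0.03281 unmatched, and Ifngr1 at -0.4044 without C1q cells and -0.07482 when matched on genes. The removal of immature and phagocyte-marked cells was chosen after seeing the data.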
